A study of Monodelphis domestica and Mus musculus with 2 samples.

Results

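Vip and Lamp5 interneurons of primary visual cortex (V1) were described here in 1 adult gray short-tailed opossum and 1 adult mouse. The cells were taken from 1 Stereo-seq section per species as all V1 cells that passed the authors' filter and carried the subclass label Vip or Lamp5. They numbered 113 of 13933 cells, of which 53 of 4806 were opossum cells and 60 of 9127 were mouse cells. In Stereo-seq, RNA with a poly(A) tail is caught where it lies on an array of DNA spots with known positions, and its unique molecular identifiers (UMIs) are then assigned to cells outlined on an image of the tissue. The opossum (Monodelphis domestica) was a male of about 6 months from a colony, and the mouse was a wild-type C57BL/6J male of about postnatal day 40. The authors drew 3 V1 regions on the opossum section and 4 on the mouse section, and gave each cell a class (GABAergic, glutamatergic or non-neuronal) and a subclass by matching it to single-nucleus RNA-seq of the same species. The comparison cells were the Pvalb and Sst cells of GABAergic class in the same section, 281 in the opossum and 294 in the mouse.

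Vip and Lamp5 cells are cortical inhibitory neurons that derive mostly from the caudal ganglionic eminence (CGE) or the nearby preoptic area, whereas Pvalb and Sst cells derive from the medial ganglionic eminence (MGE). Vip cells make vasoactive intestinal peptide, inhibit mainly other interneurons, above all Sst cells, and lie mostly in the superficial layers of rodent cortex. Lamp5 cells include neurogliaform cells of layer 1, which release GABA diffusely and often contain neuropeptide Y and reelin. The RNA-editing family gene Adarb2 is a common mark of interneurons of CGE origin.

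The labels rest on expression, so the gene levels given here describe the labelled cells and test nothing. Position was not an input to the labels, but whether RNA from surrounding cells links a cell's label to its position was not tested, so depth and neighbourhood are given as descriptions too. With 1 animal per species, the V1 regions and the cells are not replicates, no p-value is given, and a difference between the opossum and the mouse cannot be told apart from a difference between the sections. No cell name occurred in both sections. Opossum V1 cells had a median of 1326 UMIs and mouse V1 cells one of 1305. A level is given as UMIs of a gene per 10000 UMIs summed over the cells of a group, with an exact 95% Poisson interval. These intervals, like the exact Clopper-Pearson intervals on shares, cover counting error only, and a count of 5 UMIs allows a true mean of 1.62 to 11.7.

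The subclass and class labels were at odds for many opossum cells. Of the 38 opossum Vip cells, 19 were of GABAergic class and the other 19 of glutamatergic class. Of the 15 opossum Lamp5 cells, 13 were of GABAergic class and 2 of glutamatergic class. In the mouse, all 25 Vip cells were of GABAergic class, and of the 35 Lamp5 cells 31 were GABAergic, 3 glutamatergic and 1 non-neuronal. The mismatch was not particular to Vip cells, since 142 of 354 opossum Pvalb cells and 83 of 171 opossum Sst cells were also of glutamatergic class. Unless stated otherwise, gene levels are of the members of GABAergic class, which summed 28495 UMIs in opossum Vip cells, 14638 in opossum Lamp5 cells, 33250 in mouse Vip cells and 36524 in mouse Lamp5 cells.

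Labels were given in 3 rounds with looser agreement among nearest neighbours in the last. The last round supplied 23 of 38 opossum Vip labels (60.5%), 13 of 25 mouse Vip labels (52%) and 19 of 35 mouse Lamp5 labels (54.3%), but 4 of 15 opossum Lamp5 labels. Of the labels of all Pvalb cells, whatever their class, it supplied 12.4% in the opossum and 28.2% in the mouse. Of all Sst labels it supplied 21.1% and 27.2%. Within the opossum Vip cells, the last round gave 16 of 19 labels of the glutamatergic class and 7 of 19 of the GABAergic class. A finer type label was present for 9 of the 25 mouse Vip cells, 3 as Vip_A and 6 as Vip_B. Of the mouse Lamp5 cells, 22 were typed as Lamp5, 2 as Micro (left unexplained here) and 11 had no type.

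The share of Lamp5 cells among the labelled interneurons was lower on the opossum section when cells of any class were counted, and its intervals overlapped when only cells of GABAergic class were. Of all cells with a GABAergic subclass label, whatever their class, Vip cells were 6.43% in the opossum (95% interval 4.59 to 8.72, 38 of 591) and 6.11% in the mouse (3.99 to 8.89, 25 of 409). Lamp5 cells were 2.54% (1.43 to 4.15) and 8.56% (6.03 to 11.7). Of the cells of GABAergic class alone, Lamp5 cells were 4.05% (2.17 to 6.83, 13 of 321) and 8.71% (5.99 to 12.1, 31 of 356), and Vip cells were 5.92% (3.60 to 9.09) and 7.02% (4.596 to 10.2). Summed over both subclasses and cells of any class, the share was 10.0%, 7.46% and 9.70% in the opossum regions and 12.1%, 9.38%, 18.3% and 20% in the mouse regions, so the ranges of the 2 sections overlapped. The study did not quantify cell densities with this assay because transcripts can drop out, which applies to these shares too. It states that such dropout may be stronger in the opossum. The RNA integrity number it reports was lower for the opossum than for the mouse tissue, with both above the recommended threshold.

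Lamp5 cells lay mostly near the upper border of the V1 regions in both species, and Vip cells lay above Pvalb and Sst cells in most regions. By the study's methods the regions were drawn to begin at the upper edge of layer 2/3, so layer 1 lay outside them and depth counts from that edge. Depth was measured from the upper border of each region and scaled to the tallest region, which measured 773 µm on the opossum section and 774 µm on the mouse section. The median depth of opossum Lamp5 cells was 42.4 µm (interquartile range 18.6 to 422, 15 cells), against 382 µm for Pvalb and Sst cells. The median depth of mouse Lamp5 cells was 94.97 µm (50.3 to 308, 35 cells), against 429 µm. Mouse Lamp5 cells were the higher ones in all 4 regions, with differences of -375, -335, -354 and -280 µm. Opossum Lamp5 cells were higher by 379 and 373 µm in the first 2 regions, but their median was 93.8 µm deeper than that of Pvalb and Sst cells in the region with 5 of them. Of those 5, 2 were of glutamatergic class, and the 3 of GABAergic class had a median of 293 µm against 330 µm for the Pvalb and Sst cells there. Without the first region their difference was -86.9 µm, without the second -74.6 µm and without the last -374 µm, so its size rested on the first 2 regions.

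The opossum Lamp5 cells fell into a superficial set and scattered deep cells. With V1 cut by depth into 3 bands of equal height, 8 of the 15 cells (53.3%, 26.6 to 78.7) lay in the uppermost band, and the same 8 lay in the uppermost of 10 bands. All 8 were of GABAergic class, and the cells of glutamatergic class lay at 424 and 652 µm. In the mouse, 24 of 35 Lamp5 cells (68.6%, 50.7 to 83.1) lay in the uppermost of 3 bands and 16 in the uppermost of 10. The 3 cells of glutamatergic class and the cell of non-neuronal class lay between 282 and 430 µm. The uppermost of 3 bands held 18.1% of the opossum and 22.8% of the mouse Pvalb and Sst cells, and 32.8% and 36.2% of all V1 cells.

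The median Vip cell lay above the median Pvalb and Sst cell in both sections, and in the opossum the size of the difference depended on the class of the Vip cells. The median depth of mouse Vip cells was 203 µm (79.6 to 389, 25 cells), with differences from Pvalb and Sst cells of -271, -203 and -156 µm in 3 regions and +220 µm in the region that held 3 Vip cells. The median depth of opossum Vip cells was 327 µm (239 to 424, 38 cells), 55.6 µm above that of Pvalb and Sst cells, with differences of -45.4, -115 and +41.8 µm in the 3 regions. In the last of these, 6 of the 8 Vip cells were of glutamatergic class, with a median of 389.6 µm. The opossum Vip cells of GABAergic class lay above the Pvalb and Sst cells in all 3 regions, with medians of 354, 285 and 192 µm (12, 5 and 2 cells) against 397, 402 and 330 µm. In the uppermost of 3 bands lay 13 of 25 mouse Vip cells (52%, 31.3 to 72.2) and 11 of 38 opossum Vip cells (28.9%, 15.4 to 45.9), the latter below the share of all opossum V1 cells. The Vip cells of the 2 classes differed in spread: those of GABAergic class had a median of 318 µm and an interquartile width of 107 µm, and those of glutamatergic class 370 µm and 441 µm.

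**Figure D1:**
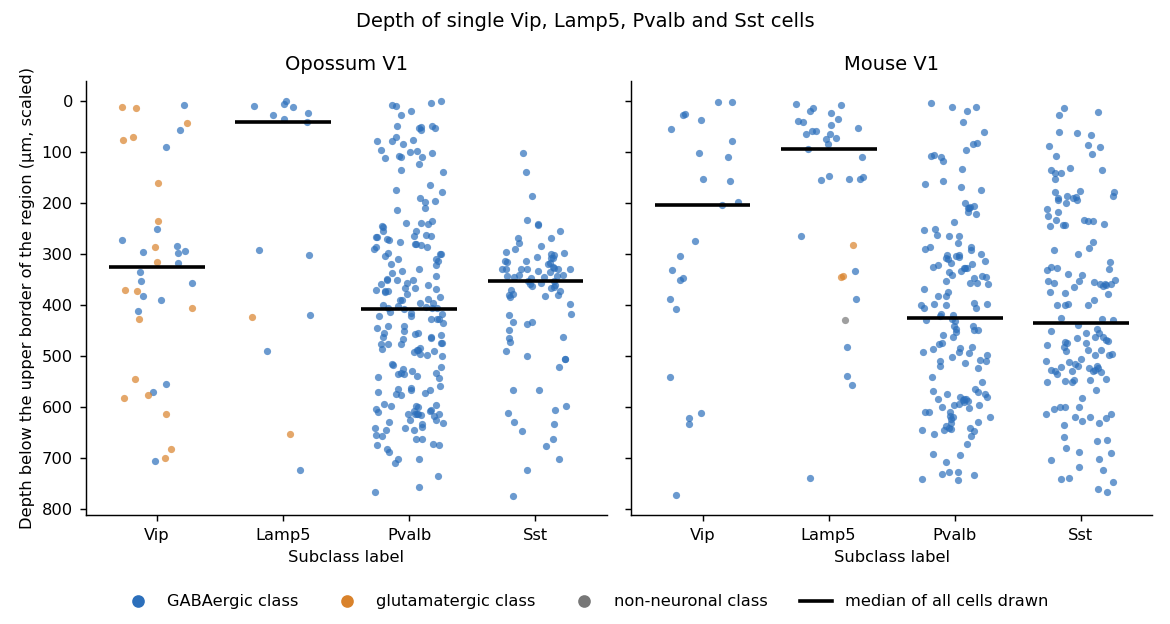
Depth of single cells below the upper border of the V1 regions (µm, scaled to the tallest region) by subclass label in the opossum (left) and the mouse (right). Each point is a cell coloured by its class label, Pvalb and Sst cells are those of GABAergic class only, and bars are medians over all cells drawn (opossum Vip 327 and Lamp5 42.4 µm, mouse Vip 203 and Lamp5 94.97 µm).

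The glutamatergic cells around the interneurons gave a view of position that does not need the rectangle fitted to a region. In the mouse, L2/3 neurons were 47.3% (262 of 554, 43.1 to 51.5) of the glutamatergic cells within 50 µm of a Lamp5 cell and 34.1% (133 of 390, 29.4 to 39.0) of those around a Vip cell. They were 17.4% around Pvalb cells, 18.6% around Sst cells and 25.9% in all of V1. The deep L6CT neurons, which project to the thalamus, were 8.12% around Lamp5 cells and 11.3% around Vip cells, against 24.8% and 22.5% around Pvalb and Sst cells. In the opossum, IT_A, the upper intratelencephalic subclass, was 75% (108 of 144, 67.1 to 81.8) around Lamp5 cells and 64.3% (252 of 392, 59.3 to 69.0) around Vip cells. It was 59.9% around Pvalb cells, 51.5% around Sst cells and 58.8% in all of V1. Opossum L6CT neurons were 18.75% (12.7 to 26.1) around Lamp5 cells and 13.8% (10.5 to 17.6) around Vip cells. They were 14.7% around Pvalb cells, 19.8% around Sst cells and 20.9% in all of V1. The share around opossum Lamp5 cells thus lay between those around Pvalb and Sst cells, but its interval held both of these and the share in all of V1. Vip and Lamp5 cells of any class were taken as centres, but only Pvalb and Sst cells of GABAergic class. A glutamatergic cell near several interneurons of a subclass was counted once for that subclass, and neighbours of one interneuron are not independent.

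Adarb2 was higher in both subclasses of both species than in Pvalb and Sst cells. In the mouse it was at 15.3 UMIs per 10000 in Vip cells (51 UMIs, interval 11.4 to 20.2) and 16.4 in Lamp5 cells (60 UMIs, 12.5 to 21.1), against 0.288 in Pvalb and Sst cells. The level in Vip and Lamp5 cells together was 55.2 times those in Pvalb and Sst cells (counting interval 31.0 to 107). At least 1 UMI was found in 14 of 25 Vip cells and 16 of 31 Lamp5 cells, with at most 14 and 21 UMIs in a cell. In the opossum ADARB2 was at 5.62 in Vip cells (16 UMIs in 7 of 19 cells, 3.21 to 9.12) and 4.10 in Lamp5 cells (6 UMIs in 3 of 13 cells, 1.504 to 8.92), against 0.124. The summed opossum ratio was 41.2 (16.2 to 124). ADARB2 was at 2.40 (5 UMIs in 5 of 19 cells) in the opossum Vip cells of glutamatergic class.

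Vip itself was found in 13 of 25 mouse Vip cells and 4 of 19 opossum Vip cells. In the mouse it was at 9.02 in Vip cells (30 UMIs in 13 of 25 cells, 6.09 to 12.9), 0.548 in Lamp5 cells (2 UMIs in 1 cell) and 0.554 in Pvalb and Sst cells. In the opossum VIP was at 3.51 in Vip cells (10 UMIs, 1.68 to 6.45) against 0.310 in Pvalb and Sst cells, and 0 UMIs were found in the 13 Lamp5 cells. The 10 UMIs came from 4 of 19 cells with 4, 3, 2 and 1. The other opossum Vip cells of GABAergic class had none. A UMI of Vip or Adarb2 was found in 23 of 25 mouse Vip cells and in 15 of 38 opossum Vip cells of any class.

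The gene Lamp5 separated the mouse Lamp5 cells poorly, and its level in opossum Lamp5 cells rested on 1 cell. In the mouse, where glutamatergic neurons also express the gene, it was at 2.46 in Lamp5 cells (9 UMIs in 7 of 31 cells, 1.13 to 4.68), 1.66 in Pvalb and Sst cells and 1.98 in glutamatergic cells. In the opossum LAMP5 was at 2.73 in Lamp5 cells, 0.124 in Pvalb and Sst cells and 0.114 in glutamatergic cells, but all 4 UMIs of Lamp5 cells were in 1 cell. Reln, the gene of the extracellular protein reelin, was at 3.42 in opossum Lamp5 cells (5 UMIs in 2 of 13 cells) and at 2.19 in mouse Lamp5 cells (8 UMIs in 3 of 31 cells, 0.946 to 4.32). Its levels in Sst cells were 8.20 and 2.57, so Reln was not highest in Lamp5 cells in either section. No UMI of RELN was found in the opossum Vip cells, which puts them at least 2.49-fold below Pvalb and Sst cells when 3 UMIs are taken as the upper limit for a summed count of 0. A UMI of Lamp5, Adarb2 or Reln was found in 23 of 35 mouse and 6 of 15 opossum Lamp5 cells. In GRCm39, the 4 mouse markers are the protein-coding genes Vip (chromosome 10, 5589186 to 5599956, + strand), Lamp5 (chromosome 2, 135894159 to 135911924, + strand), Adarb2 (chromosome 13, 8252897 to 8818800, + strand) and Reln (chromosome 5, 22089452 to 22549700, - strand).

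**Figure D2:**
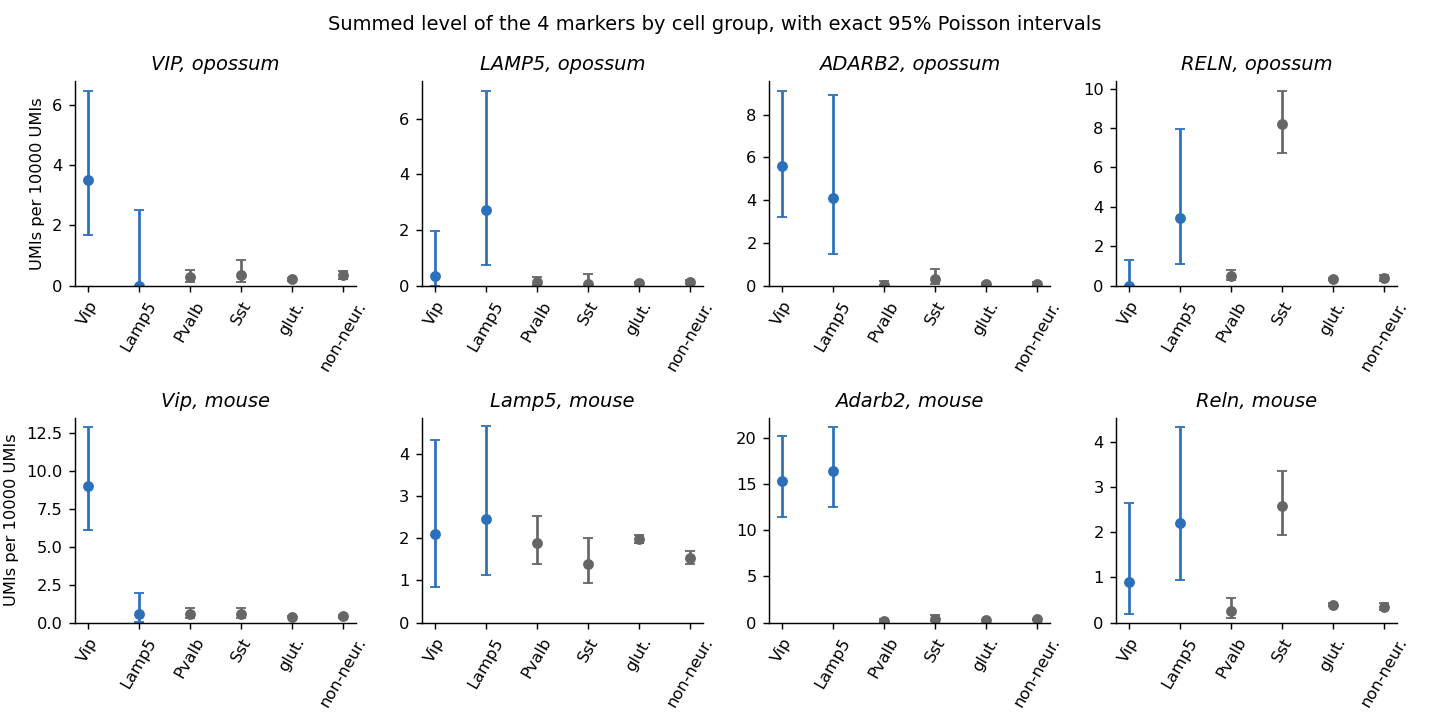
Levels of the 4 markers (UMIs per 10000 UMIs, linear axes of different range) summed over the cells of each group in the opossum (top) and the mouse (bottom), with exact 95% Poisson intervals. Vip and Lamp5 cells of GABAergic class are blue and comparison groups gray, and Adarb2 is near 0 in every gray group, whereas mouse Lamp5 differs little between groups.

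UMIs of a marker also occurred in cells that should lack it, so the shares of positive cells were set beside those of glutamatergic cells. In the mouse, 53.6% of Vip and Lamp5 cells had an Adarb2 UMI, against 3.74% of Pvalb and Sst cells and 3.05% of glutamatergic cells, at median depths of 1113.5, 1503.5 and 1328 UMIs. After every cell was thinned to 300 UMIs, which left out 1 member, the shares were 27.3%, 0.687% and 0.637%. In the opossum they were 31.2%, 2.14% and 1.20% at median depths of 1288, 1623 and 1360 UMIs, and 22.6%, 0.364% and 0.266% after thinning. Of mouse Vip cells, 52% had a Vip UMI against 4.18% of glutamatergic cells (25% and 1.19% after thinning), and of opossum Vip cells 21.1% against 2.06% (10.5% and 0.916%). The share of mouse Lamp5 cells with a Lamp5 UMI, 22.6%, was close to the 19.1% of glutamatergic cells, which express the gene.

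Conversely, most cells with marker UMIs carried another label. Of 97 mouse V1 cells with at least 2 Vip UMIs, 10 (10.3%) had the Vip label and 46 a glutamatergic subclass. Of 43 such opossum cells, 4 (9.30%) had the Vip label, 15 a glutamatergic and 12 a non-neuronal subclass. In the opossum 5 of the 10 cells with at least 2 ADARB2 UMIs were Vip or Lamp5 cells (4 and 1). In the mouse 21 of 94 cells with at least 2 Adarb2 UMIs were (22.3%). Among 494 mouse cells with at least 2 Lamp5 UMIs, 2 had the Lamp5 label, and among 77 opossum cells with at least 2 RELN UMIs, 38 were Sst cells.

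Around Vip cells, the level of Vip in other cells was lower at larger distances. Around mouse Vip cells, Vip was at 1.37 in other cells within 15 µm, 0.927 within 25 µm, 0.581 within 50 µm and 0.383 farther away, against 9.02 in the Vip cells themselves. Around opossum Vip cells, VIP was at 1.40, 1.13, 0.692 and 0.194, against 3.51. Adarb2 around mouse Vip cells was at 1.83, 1.09, 0.634 and 0.352, and the 78 cells within 15 µm of a mouse Lamp5 cell had no Adarb2 UMI. In the opossum ADARB2 was at 0.465 within 15 µm of a Vip cell, which was 1 UMI, and 0 within 50 µm of a Lamp5 cell. ERBB4, at 49.1 in opossum Vip cells, had 0 UMIs in the 22 cells within 15 µm and was at 1.55 within 25 µm, close to the 1.77 of cells farther away. Whether UMIs of the members spread into neighbouring cells was not tested.

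**Figure D3:**
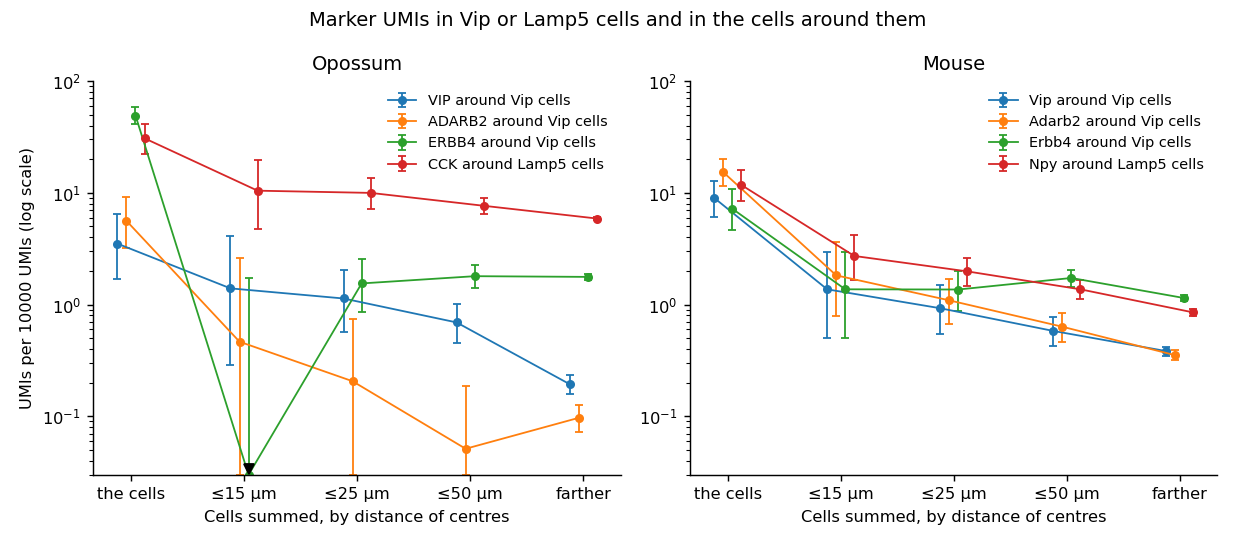
Levels (UMIs per 10000 UMIs, log axis) in Vip or Lamp5 cells of GABAergic class and in the cells around them, by the distance between cell centres in µm, for 4 genes in the opossum (left) and the mouse (right), with exact 95% Poisson intervals. The 3 distances are cumulative, the black triangle marks a count of 0 drawn at the lower edge of the axis, and every gene is highest in the cells themselves.

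The summed level of genes of CGE-derived cells was higher in both subclasses, mostly through Adarb2, and that of genes of MGE-derived cells was lower. Summed over the CGE list (Adarb2, Prox1, Nr2f2, Sp8, Npas1, Cxcl14, Cnr1 and Htr3a), Vip and Lamp5 cells were at 6.96 (4.69 to 9.93) in the opossum and 20.1 (16.9 to 23.7) in the mouse, against 0.867 and 2.17 in Pvalb and Sst cells. Of the 7 genes matched in the opossum, 4 were higher and 2 lower, and of the 8 in the mouse, 4 were higher and 3 lower. Most of these directions rest on a few UMIs, such as 2 of NR2F2 and 1 of SP8 in the opossum members. They have no share over all genes beside them. At least 5 UMIs were expected in the smaller group for 0 of the 7 opossum genes. In the mouse this held for 2 of the 8 genes, Adarb2 and Cnr1. Of these, Adarb2 was past a 2-fold ratio higher, as were 3.84% of all mouse genes compared. Fewer than 5 Adarb2 UMIs were expected in the members at the level of Pvalb and Sst cells. It thus entered only through the group where it is high, and its ratio is a description. Cxcl14, a chemokine gene, was at 2.11 in mouse Vip cells and 2.19 in mouse Lamp5 cells, against 0.354, and at 0.351 and 0 in the opossum, against 0.454. The opossum PROX1 count in Lamp5 cells was 4 UMIs in 1 cell, and Htr3a, the serotonin receptor subunit of many CGE-derived cells, had 0 UMIs in the members of both species.

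The MGE list held transcription factors of these cells, such as Lhx6 and Sox6, and genes of Pvalb and Sst cells. Summed over it, Vip and Lamp5 cells were at 7.42 (5.07 to 10.5) against 33.0 in the opossum and at 12.9 (10.4 to 15.9) against 27.9 in the mouse. None of the 11 genes matched in the opossum was higher in Vip and Lamp5 cells and 10 were lower. In the mouse 2 of 16 were higher and 12 lower. These directions count a difference of any size and have no share over all genes beside them. Some rest on very few UMIs. CHODL and NOS1 had 0 UMIs in the opossum members, where 0.267 and 0.445 were expected at the level of Pvalb and Sst cells. No UMI of LHX6, SOX6 or CRHBP (which encodes a protein that binds corticotropin-releasing hormone) was found in the opossum members. Their levels in Pvalb and Sst cells were 1.40, 1.57 and 2.83. With 3 UMIs as the limit for a count of 0, they were at least 2.02-, 2.25- and 4.06-fold lower in Vip and Lamp5 cells. The wider counting intervals on their ratios reached up to 0.626, 0.559 and 0.307. SST was at 2.11 in opossum Vip and 3.42 in opossum Lamp5 cells, against 19.997. In the mouse Sox6 was at least 4.38-fold lower (0 UMIs against 1.88), Kcnc2, a potassium channel gene of fast-spiking cells, was at 0.301 in Vip and 0.821 in Lamp5 cells against 5.65, and Pvalb was at 0.902 and 0.821 against 3.79. Sst separated the mouse groups less, at 6.62 in Vip and 4.38 in Lamp5 cells against 8.02.

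The list of genes reported for Vip cells (such as Vip, Calb2, Crh, Cck, Penk and Igf1) was at 24.9 in opossum Vip and 32.8 in opossum Lamp5 cells, against 8.19, and at 20.2 in mouse Vip and 4.93 in mouse Lamp5 cells, against 5.67. The opossum sums were made largely by CCK, the cholecystokinin gene. CCK was at 19.3 in opossum Vip cells (55 UMIs in 14 of 19 cells, 14.5 to 25.1) and 30.7 in opossum Lamp5 cells (45 UMIs in 10 of 13 cells, 22.4 to 41.1), against 5.41 in Pvalb and Sst cells. The ratios were 3.57 (2.62 to 4.79) and 5.69 (4.05 to 7.82). CCK was also at 10.4 in the cells within 15 µm of opossum Lamp5 cells and 5.89 in cells farther away. In the mouse Cck did not separate the groups, at 5.41, 4.11 and 4.36, with ratios of 1.24 (0.720 to 2.01) for Vip cells and 0.941 (0.517 to 1.59) for Lamp5 cells. Igf1, which encodes insulin-like growth factor, was at 3.31 in mouse Vip cells (11 UMIs in 4 cells, 7 of them in 1) and at 0.0886 in Pvalb and Sst cells. CALB2 had 0 UMIs in the opossum members of GABAergic class, and Calb2 had 1 UMI in mouse Vip cells.

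The list of genes reported for Lamp5 cells (Lamp5, Reln, Ndnf, Npy, Id2, Cplx3, Kit and Sv2c) was at 17.1 in opossum Lamp5 cells, 2.81 in opossum Vip cells and 4.17 in Pvalb and Sst cells, and at 25.7, 8.12 and 6.60 in the mouse. Kit, a receptor tyrosine kinase gene, was at 7.51 in opossum Lamp5 cells (11 UMIs in 7 of 13 cells, 3.75 to 13.4) against 0.227, and at 3.56 in mouse Lamp5 cells (13 UMIs in 6 of 31 cells, 1.90 to 6.09) against 0.377. Vip cells had 0 KIT UMIs in the opossum and 1 Kit UMI in the mouse. Npy was at 11.8 in mouse Lamp5 cells (43 UMIs in 16 of 31 cells, 8.52 to 15.9), 7.08 times (4.75 to 10.4) its level in Pvalb and Sst cells, and at 3.31 in mouse Vip cells. NPY had 0 UMIs in the opossum members and 5 UMIs in 1 of 281 Pvalb and Sst cells, so a difference was not detectable there. Id2 was at 3.42 in opossum and 2.74 in mouse Lamp5 cells, against 0.805 and 1.13, and Ndnf had 0 UMIs in the members of both species.

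**Figure D4:**
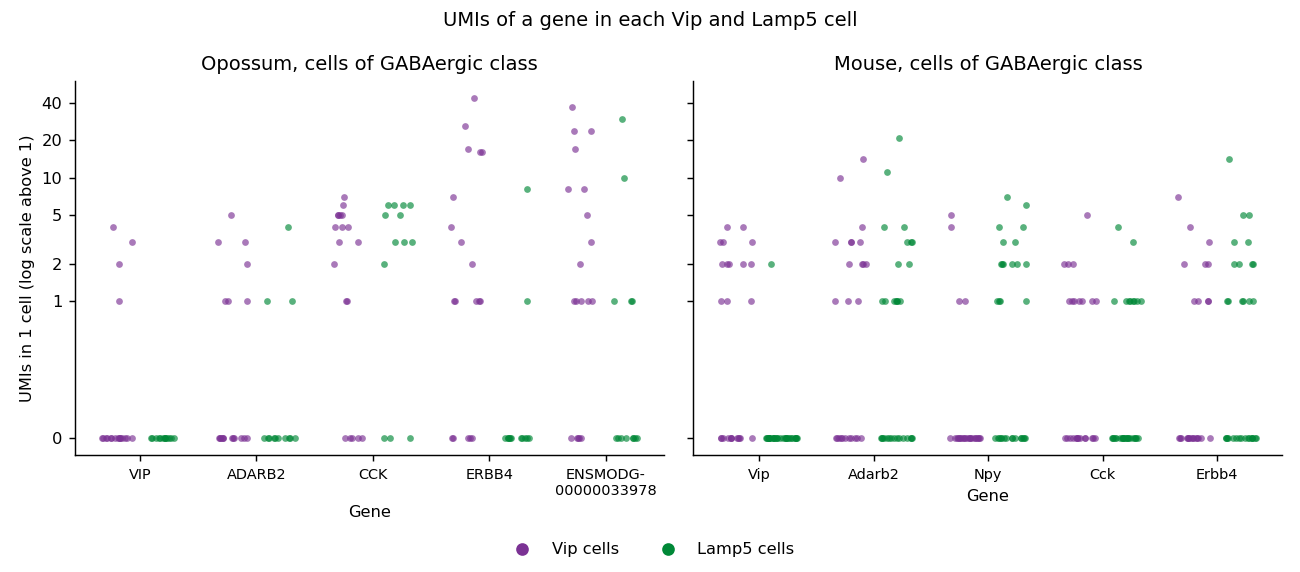
UMIs of a gene in each Vip (purple) and Lamp5 (green) cell of GABAergic class, on an axis that is logarithmic above 1 and holds 0 below it. Opossum CCK is spread over most cells at up to 7 UMIs, whereas ERBB4 and ENSMODG00000033978 reach 44 and 37 UMIs in single Vip cells.

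Genes of GABAergic identity differed between the 2 subclasses. Gad2, one of the genes for the GABA-producing enzyme, was at 17.8 in opossum Lamp5 cells (26 UMIs in 10 of 13 cells) and 1.75 in opossum Vip cells (5 UMIs in 2 of 19 cells), against 8.67 in Pvalb and Sst cells. Gad1, the other, was at 16.4 and 3.86 against 12.1. In the mouse Gad2 was at 6.30 in Lamp5 and 2.11 in Vip cells against 1.48, and Gad1 at 6.57 and 5.71 against 4.85. The whole list summed to 60.4 in opossum Vip, 62.9 in opossum Lamp5 and 56.0 in Pvalb and Sst cells, and to 19.2, 33.1 and 25.4 in the mouse.

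In opossum Vip cells this sum was made mostly by ERBB4, the neuregulin receptor gene of many interneurons. ERBB4 was at 49.1 in Vip cells (140 UMIs in 14 of 19 cells, 41.3 to 58.0), 32.1 in Pvalb cells, 6.15 in Lamp5 cells and 3.73 in Sst cells. The richest Vip cells held 44, 26, 17, 16 and 16 UMIs, and 8 of the 9 UMIs of Lamp5 cells were in 1 cell. In the mouse the order differed, with 23.4 in Pvalb, 12.0 in Lamp5, 7.22 in Vip and 1.87 in Sst cells. Poisson intervals are too narrow for genes whose UMIs gather in a few cells.

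The opossum Vip cells of glutamatergic class were at 2.40 against 3.51 for VIP, with overlapping intervals (0.778 to 5.59 and 1.68 to 6.45), and at 3.36 against 49.1 for ERBB4. NRGN, a gene of glutamatergic neurons, was at 59.9 against 40.4, and SV2B, a synaptic vesicle gene, at 5.75 against 1.75. By round, the 12 opossum Vip cells of GABAergic class labelled in the first 2 rounds were at 4.85 for VIP, 6.31 for ADARB2 and 27.7 for NRGN. The 7 cells labelled in the last round were at 0, 3.81 and 73.6. In mouse Vip cells Adarb2 was at 11.4 in those of the first 2 rounds and 19.4 in those of the last, and Vip at 11.96 and 6.05. The 11 opossum Lamp5 cells of the first 2 rounds had a median depth of 27.1 µm, and held all 8 cells of the uppermost of 3 bands.

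Markers of other cell types were set beside these values, summed over each list. The glutamatergic list was at 47.0 in opossum Vip and 38.9 in opossum Lamp5 cells, against 37.6 in Pvalb and Sst cells, and at 41.8, 45.7 and 39.4 in the mouse. The astrocyte list was at 19.3 and 26.0 against 21.2 in the opossum and 17.1 and 10.95 against 13.5 in the mouse, and the list of oligodendrocytes and precursors at 22.8 and 26.0 against 30.7 and at 11.7 and 19.2 against 22.1. Microglia genes summed to 0 in the opossum members and to 2.71 and 1.92 in mouse Vip and Lamp5 cells, against 1.02 in Pvalb and Sst cells. Endothelial genes stayed at or below 3.31 in every group of members. Markers of excitatory neurons and glia were thus present in the members. The list of oligodendrocytes and precursors was lower in the members than in Pvalb and Sst cells in both species, most so in mouse Vip cells. Microglia genes were higher in the mouse members. The part of all these markers in the other values was not tested.

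**Figure D5:**
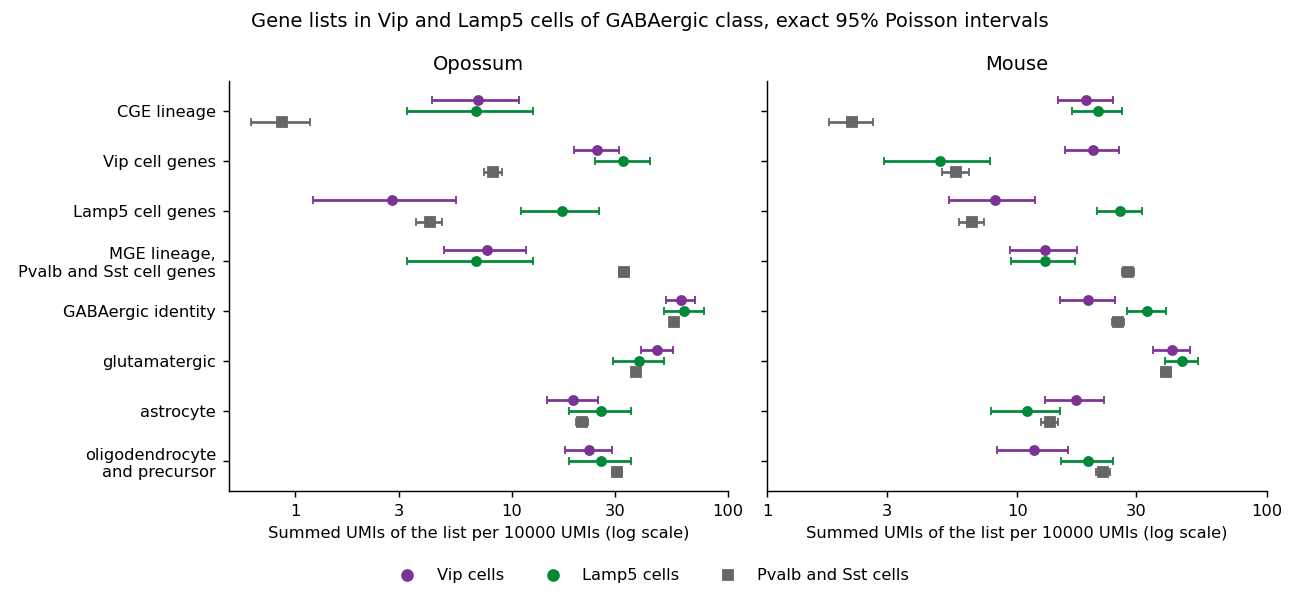
Summed levels of 8 gene lists (UMIs per 10000 UMIs, log axis) in Vip cells, Lamp5 cells, and Pvalb and Sst cells of GABAergic class in the opossum (left) and the mouse (right), with exact 95% Poisson intervals. The CGE list is higher and the MGE list lower in both subclasses of both species, and the lists of other cell types lie nearer to the gray squares.

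Across the other fixed lists, few genes had enough UMIs to compare. Of the genes for VIP and its relative PACAP, mouse Vip cells had no UMI of the receptor genes Vipr1, Vipr2 or Adcyap1r1, and mouse Lamp5 cells had 5 UMIs of Adcyap1r1 (1.37 against 1.17). The opossum members had no UMI of VIPR1 or VIPR2, whose levels in Pvalb and Sst cells were 0.0413 and 0.640. The whole list was at 5.26 in opossum Vip, 1.37 in opossum Lamp5, 9.32 in mouse Vip and 2.46 in mouse Lamp5 cells, against 2.27 and 2.06. Among neuromodulator receptors, Chrm3, a muscarinic acetylcholine receptor gene, was at 3.61 in mouse Vip cells (12 UMIs in 4 cells) and 0.548 in mouse Lamp5 cells, against 1.64. That list summed to 4.21 and 3.42 against 4.79 in the opossum and to 6.02 and 5.75 against 4.14 in the mouse, in the order Vip, Lamp5, and Pvalb and Sst cells. Neuropeptide genes summed to 27.02 and 35.5 against 28.02 in the opossum and to 26.8 and 21.6 against 16.9 in the mouse.

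To find other genes, levels were compared across all genes with at least 5 UMIs expected in the smaller group, and genes past a 2-fold ratio were counted. Between opossum Vip cells and Pvalb and Sst cells, 70 of 1184 genes (5.91%) were past the fold higher and 201 (17%) lower. For opossum Lamp5 cells, 28 of 432 (6.48%) were higher and 69 (16%) lower. For mouse Vip cells, 70 of 1402 (4.99%) were higher and 135 (9.63%) lower, and for mouse Lamp5 cells, 78 of 1564 (4.99%) were higher and 166 (10.6%) lower. At these group sizes counting error alone carries genes past the fold, so the numbers are no count of genes that differ. With both subclasses summed, 142 of 2027 opossum genes (7.01%) and 127 of 3311 mouse genes (3.84%) were past the fold higher, and 279 (13.8%) and 316 (9.54%) lower. Of the 6 MGE genes that entered in each species, 5 (opossum) and 3 (mouse) were past the fold lower and none higher. Their median log2 ratio was -3.26 in the opossum, or -1.14 with genes at 0 UMIs set to their bound. It was -1.28 either way in the mouse. Over all genes compared, the medians were -0.08 and 0.00. LHX6, SOX6 and CRHBP in the opossum and Sox6 in the mouse had 0 UMIs in the members. They entered only through the Pvalb and Sst cells, where they are high. The labels rest on expression, so these values describe the labelled cells and test nothing.

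The gene with the highest ratio in opossum Vip cells, among those in 1 direction in every region where it could be judged, was ENSMODG00000033978, which has no symbol in the files. It was at 46.7 in Vip cells (133 UMIs in 14 of 19 cells, 39.1 to 55.3) and 0.268 in Pvalb and Sst cells, a log2 ratio of 7.39. Fewer than 5 UMIs were expected in the Vip cells at the level of Pvalb and Sst cells, so the gene entered only through the group where it is high, and its place is a description. Only 1 region had enough UMIs to judge its direction. The richest cells held 37, 24, 24 and 17 UMIs, and without the richest the level was 36.1. It was at 29.4 in opossum Lamp5 cells, with 30 and 10 of its 43 UMIs in 2 cells. In the Vip cells of glutamatergic class it was at 15.3 (32 UMIs, 20 of them in 1 cell), in IT_A cells of glutamatergic class at 0.516 and in astrocytes of non-neuronal class at 0.595. Across the GABAergic Vip cells, the 9 cells with 2 or more of its UMIs and the other 10 were at 66.8 and 30.8 for ERBB4, 6.20 and 5.01 for ADARB2 and 2.07 and 5.01 for VIP, and held a median of 1614 and 1117 UMIs in all.

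The next genes in opossum Vip cells were CACNA1B (a presynaptic calcium channel subunit, log2 ratio 2.50), ARNT2 (a transcription factor, 2.37), GRM7 (a metabotropic glutamate receptor, 2.18), KCNIP1 (a potassium channel-interacting protein, 2.02), MSRA (a methionine sulfoxide reductase, 1.99), GRIK2 (a kainate receptor subunit, 1.96) and NPAS3 (a transcription factor, 1.89). Single cells carried much of these values: 18 of 23 KCNIP1 UMIs, 16 of 31 ARNT2 UMIs and 26 of 60 GRIK2 UMIs were in 1 cell each. In mouse Vip cells GRM7 had a log2 ratio of 1.20, and ARNT2, KCNIP1 and GRIK2 had ratios of 0.11, 0.43 and 0.11. The lowest genes in opossum Vip cells, MYO16, GRIA3, COL25A1, CRHBP, PAK1, SH3GL1, RELN and ENSMODG00000009055, all had 0 UMIs. The bounds ran from at least 2.45-fold lower for ENSMODG00000009055 to at least 3.25-fold lower for MYO16, an unconventional myosin. Here and below, the lowest genes were picked for their low counts, so the bounds describe those counts and test nothing.

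In opossum Lamp5 cells CCK came first (log2 ratio 2.52), followed by ITFG1 (2.23), DLGAP1 (a postsynaptic scaffold protein, 1.36), SERPINI1 (neuroserpin, 1.36), MEF2D (a transcription factor, 1.28), GPAA1 (1.24), ENSMODG00000003841 (1.22) and ENSMODG00000006007 (1.20). ITFG1 was at 15.7 (23 UMIs in 7 of 13 cells) against 3.41. The lowest genes, all at 0 UMIs, were KCNH7, CSMD1, SLC24A2, TMEM132C, CRTAC1, MYRIP, ENSMODG00000020811 and ENSMODG00000041525. The potassium channel gene KCNH7 was at least 3.69-fold lower and ENSMODG00000041525 at least 1.88-fold lower. In mouse Lamp5 cells ITFG1, DLGAP1 and SERPINI1 had log2 ratios of 0.05, 0.08 and 0.17.

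In mouse Lamp5 cells Adarb2 came first (log2 ratio 5.79), followed by Npy (2.83), Fgf13 (a fibroblast growth factor homologous factor, 2.37), Gad2 (2.11), Ppp1r12a (a myosin phosphatase subunit, 1.90), Gabbr2 (a GABA-B receptor subunit, 1.81), Kctd16 (an auxiliary subunit of the same receptor, 1.67) and Cdk14 (1.66). Adarb2, one of the 4 markers, had 1.05 UMIs expected in Lamp5 cells at the level of Pvalb and Sst cells, so it too entered only through the group where it is high. The same holds for Fgf13, Ppp1r12a and Cdk14, which also had fewer than 5 UMIs expected at that level, so their places are descriptions. Gabbr2 was at 6.02 (22 UMIs) and Kctd16 at 5.48 (20 UMIs), against 1.75 each. The lowest genes, Atxn7l3b, Cdh13, Eps15, Sox6, Fam135b, Arap2, Dlg1 and Ogt, had 0 UMIs, with bounds from at least 1.94-fold lower for Ogt to at least 2.94-fold lower for Atxn7l3b. In opossum Lamp5 cells GAD2 had a log2 ratio of 1.06, KCTD16 0.79 and GABBR2 -0.62.

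In mouse Vip cells the highest were Fxyd6 (a regulator of the sodium pump, log2 ratio 1.89), Robo1 (an axon guidance receptor, 1.82), Cbarp (1.77), Selenok (1.75), Kctd16 (1.66), Braf (a kinase, 1.58), Nr1d2 (a clock-linked nuclear receptor, 1.56) and Arl1 (1.54). Fxyd6 was at 6.32 (21 UMIs in 7 of 25 cells) against 1.73, and at 2.46 against 0.784 in opossum Vip cells. For Robo1, Cbarp and Braf fewer than 5 UMIs were expected in Vip cells at the level of Pvalb and Sst cells. They thus entered only through the group where they are high, and their places are descriptions. The lowest were Grip1, Nxph1, Dmd, Abi2, Kcnab1, Sox6, Mprip and Kcnc2. Grip1, a scaffold for AMPA receptors, and Nxph1, neurexophilin, had 0 UMIs in mouse Vip cells and were at 5.74 and 5.49 in Pvalb and Sst cells, so they were at least 6.36- and 6.09-fold lower. Kcnc2 had 1 UMI in mouse Vip cells, a ratio of 0.0532 (0.00134 to 0.299). Vip, at 16.3 times (9.26 to 28.9) the level of Pvalb and Sst cells, and Adarb2, at 53.3 times (28.5 to 107), did not enter this comparison because fewer than 5 of their UMIs were expected at the pooled level.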

How the data were processed

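With the Stereo-seq Analysis Workflow and tissue aligned by hand, the authors processed 1 section each of 1 opossum and 1 mouse, aligned opossum reads to a custom opossum genome with extended 3′ gene ends and mouse reads to GRCm39, and deposited UMI counts per gene and segmented cell, without normalization, with cell positions, V1 regions and labels. The submitters' processing notes name Cell Ranger. Labels and counts were used as deposited. The sections held 80369 and 120239 segmented cells and 84570416 and 147861707 UMIs, and V1 cells a median of 821.5 and 848 genes. The snRNA-seq data behind the labels were not used here.

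Cells were kept by the authors' filter and V1 regions. Depth was measured along the smallest rectangle around each region, with L2/3 or IT_A at the top. Ratios of summed UMIs per 10000 were computed with a pseudocount of 0.5 UMI for log2 values, over genes with at least 5 UMIs expected in the smaller group at the pooled level, and a fold of 2. Ratios printed with an interval have no pseudocount. A summed count of 0 was bounded at 3 UMIs over the group. Named genes were the 4 markers, the fixed gene lists and, per comparison, the 8 highest and 8 lowest log2 ratios with 1 direction in every region where at least 1 UMI was expected in both groups. The members and gene lists were chosen with earlier results of these data known. Genes were matched between species by symbol without regard to case: 85 of 106 list genes were found in the opossum and all 106 in the mouse, and the 21 others, Pvalb among them, are not analysed here in the opossum.

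No test was possible with 1 animal per species. The gene comparison was tested on simulated data. Alternatives were label rounds, other folds and minimum counts, all members whatever their class, thinning to 300 UMIs, higher UMI minimums, other distances, and each V1 region left out. Python 3.11.15 was used with numpy 2.4.6, scipy 1.17.1, pandas 2.3.3, shapely 2.1.2 and matplotlib 3.10.9.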

Additional observations from a re-analysis of the deposited data

How the results depend on the processing

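No paired analysis was possible because each species had 1 animal. Of 170 alternative values, 123 moved by less than the counting or regional spread, 47 moved by more and none changed sign. The causes of the moves were not tested unless the alternative itself left fewer cells, genes or UMIs.

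With the labels of the first 2 rounds alone, there were 15 opossum Vip cells of any class (12 of GABAergic class), 3.17% of the cells with a GABAergic subclass, and in the mouse 12 Vip cells and 16 Lamp5 cells, all of GABAergic class, with a Lamp5 share of 5.80%. Without the cell richest in the gene, an alternative chosen after seeing the data, opossum Lamp5 cells were at 0 for LAMP5 and 0.776 for RELN. With at least 2 UMIs required, the share of positive members for Adarb2 was 15.6% (opossum) or 35.7% (mouse), and that of mouse Lamp5 cells for Lamp5 was 6.45%. After thinning to 300 UMIs, the share was 0 for RELN in opossum Lamp5 cells, 25% for Vip in mouse Vip cells and 27.3% for Adarb2 in mouse members.

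The number of genes past the fold depended on every threshold. It was 271 for opossum Vip cells, 97 for opossum Lamp5 cells, 421 for both, 205 for mouse Vip cells, 244 for mouse Lamp5 cells and 443 for both. In that order it was 542, 184, 872, 516, 600 and 1106 with a fold of 1.5, and 124, 42, 139, 59, 74 and 124 with a fold of 3. It was 1118, 519, 1464, 993, 1177 and 1730 with a minimum of 2 expected UMIs, and 68, 14, 110, 34, 50 and 106 with a minimum of 10. With members of any class it was 458 for opossum Vip cells, and 1 MGE gene was higher in the members of each species. Of mouse cells with Vip UMIs, 3.28% had the Vip label at a minimum of 1 UMI and 18.5% at 3, and of those with at least 3 Lamp5 UMIs 0 had the Lamp5 label. Adarb2 was at 0.488 in cells within 50 µm of mouse members.

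Leaving out each V1 region in turn kept the direction of every depth difference. In opossum Lamp5 cells the level of LAMP5 ran from 0 (without region 2) to 5.18 and that of RELN from 0.839 (without region 3) to 6.48. The depth difference of mouse Lamp5 cells ran from -363 to -282 µm, the level of Vip in mouse Vip cells from 7.16 to 13.3 (without region 1), and that of Adarb2 in mouse members from 12.1 to 18.4. The genes past the fold ran from 50 (without region 1) to 265 for opossum Vip cells, from 40 (without region 1; 51 without region 2) to 72 for opossum Lamp5 cells and from 131 (without region 1) to 402 for both. In the mouse they ran from 70 (without region 1; 129 without region 4) to 195 for Vip cells, from 134 (without region 1) to 228 for Lamp5 cells and from 236 (without region 1) to 436 for both. In the opossum 2 (without region 2) to 4 genes of the CGE list and 0 to 1 (without region 1) of the MGE list were higher, and in the mouse 1 (without region 2) to 4 (without region 1) of the MGE list.

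A group of 13 to 31 cells held 14638 to 36524 UMIs, so most genes had too few UMIs to compare. Counts gathered in single cells, and the intervals leave out that spread. Markers occurred in cells of other labels, the labels of the last round rest on looser agreement, and each species had 1 animal, so nothing here gives the spread between animals.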
